A study of Oncorhynchus mykiss with 6 samples.

Results

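Keratin loci were described in dorsal skin of rainbow trout (Oncorhynchus mykiss), taking every locus of the deposited table whose description holds the word keratin and neither keratinocyte nor keratinization. Of 41818 loci, 54 met this rule. The descriptions name 35 of them as type I and 9 as type II. The other 10 state no type and comprise Keratin 12, 8 keratin-associated protein loci and 1 locus for trichoplein, a protein that binds keratin filaments. The yellow mutant group held 3 libraries (replicates 1 to 3) and the wild-type group held 3 libraries (replicates 1 to 3), each of dorsal skin at an age of 45 days. The labels give the phenotype alone, with no gene, allele, strain or sex, and the mutation behind the yellow phenotype was thus not given in the sources used here. In this study the authors set the mutant beside the wild type in order to find mRNAs and miRNAs that may take part in skin colour. The labels do not say whether libraries of the same phenotype came from separate fish. The p-values here thus set the difference between phenotypes only against the spread among these libraries, which may be technical.

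Keratins are the intermediate filament proteins of epithelial cells. A filament forms only when a type I chain pairs with a type II chain, and desmosomes and plakin proteins tie the filaments to the cell membrane. Keratin 8 and keratin 18 are the type II and type I pair of simple epithelia, whereas stratified epithelia make other pairs in addition. Fish epidermis is stratified but stays alive to its surface and is covered by mucus, and in fish keratins 8 and 18 also occur in some cells outside epithelia. In trout the type I and type II keratins were given letters, E for epidermis and S for simple epithelia, and several descriptions carry them. Salmonids descend from an ancestor whose whole genome was duplicated, so a keratin can have near-identical copies. The treatment of reads that match more than 1 copy was not given in the sources used here, and the split of counts between similar loci is uncertain for that reason.

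Total counts per library lay between 16334241 and 19031878 in the yellow mutant and between 15059101 and 17975192 in the wild type. Of the 54 keratin loci, 50 had at least 1 count in the 6 libraries and 38 passed the filter on low counts. Levels are given as CPM, counts brought to a common library size with factors from the trimmed mean of M-values (TMM), and changes as log2 fold changes of yellow mutant over wild type with standard errors (SE). Each adjusted p comes from edgeR's quasi-likelihood test with Benjamini-Hochberg adjustment over all 30691 loci tested.

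Keratin loci took a smaller share of the counts in yellow mutant skin. All 54 loci together held 3.40, 3.17 and 3.18% of the counts in yellow mutant replicates 1 to 3, against 7.12, 7.16 and 7.37% in wild-type replicates 1 to 3. The mean was 3.25 ± 0.131% in the yellow mutant and 7.21 ± 0.133% in the wild type (SD, n = 3 each), a difference of -3.96 percentage points with no overlap between the phenotypes. These are bulk libraries, in which fewer cells of a type and less RNA per cell cannot be told apart. Type I loci held 1.33 ± 0.0688% in the yellow mutant and 2.89 ± 0.0836% in the wild type. Type II loci held 1.81 ± 0.0573% in the yellow mutant and 4.03 ± 0.0481% in the wild type. Both types were lower in every yellow mutant library, and the loci of no stated type held 0.117 ± 0.00681% in the yellow mutant and 0.296 ± 0.00398% in the wild type.

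A few loci carried nearly the whole difference. The 5 most abundant, a grouping made after their values were seen, were E2, keratin 13, E1, a keratin 13-like locus and Keratin 12. They made up 89.1, 87.5 and 86.9% of the keratin counts in the yellow mutant libraries, against 95.1, 94.5 and 94.6% in the wild-type libraries. As a share of all counts they held 2.86 ± 0.151% in the yellow mutant and 6.83 ± 0.119% in the wild type. The other 49 loci together held 0.372, 0.396 and 0.417% in the yellow mutant, against 0.350, 0.397 and 0.395% in the wild type, and here the phenotypes overlapped. On the scaled CPM the same 49 loci summed to 3506, 3683 and 3867 in the yellow mutant, against 3685, 4270.2 and 4296 in the wild type.

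**Figure D1:**
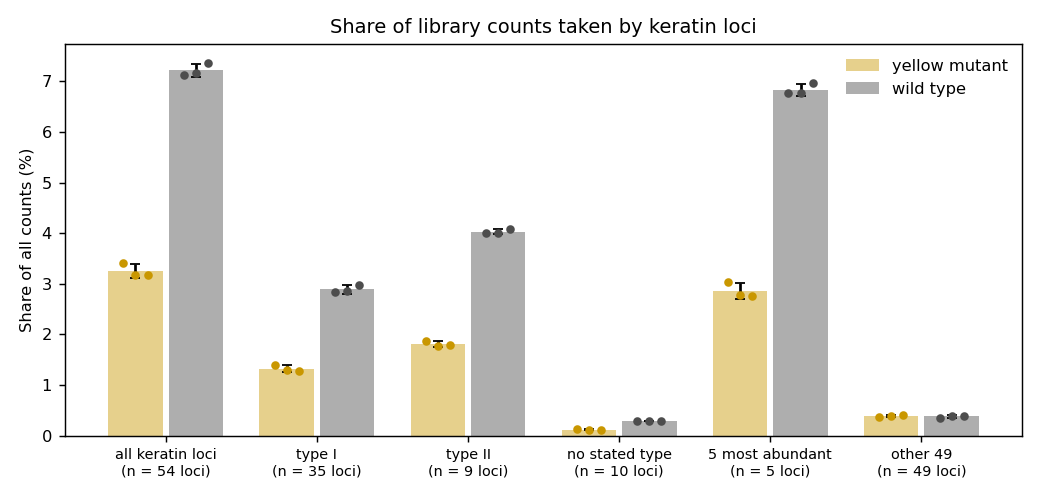
Share of all counts (%) taken by keratin loci in 3 yellow mutant (left of each pair) and 3 wild-type libraries, with bars for means, error bars for SD and points for libraries. All keratin loci, both types and the 5 most abundant loci lie lower in every yellow mutant library, while the other 49 loci overlap.

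Counted locus by locus, 19 of the 38 tested keratin loci were lower in the yellow mutant, 2 were higher and 17 did not pass an adjusted p of 0.05. Over all tested loci of the table, 44.8% passed in either direction, 21.7% higher and 23.1% lower, so a call on its own is common in these data. Among the tested keratin loci 50% passed lower and 5.26% passed higher. The median log2 fold change of the tested keratin loci was -0.34, beside -0.0029 for all tested loci. On the scaled CPM the phenotypes did not overlap at 22 of the 38 loci, or 57.9%, a share near the 54.3% of all tested loci. Scaling by library totals alone shifted the median of all tested loci to 0.20 and turned the split of the whole table to 10800 higher and 4548 lower, from 6658 and 7079. Under that scaling 14 keratin loci were lower and 6 were higher. By type, 12 of 24 tested type I loci were lower and 2 were higher, with a median of -0.30. Of the type II loci, 6 of 9 were lower and 0 were higher, with a median of -0.90.

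**Figure D2:**
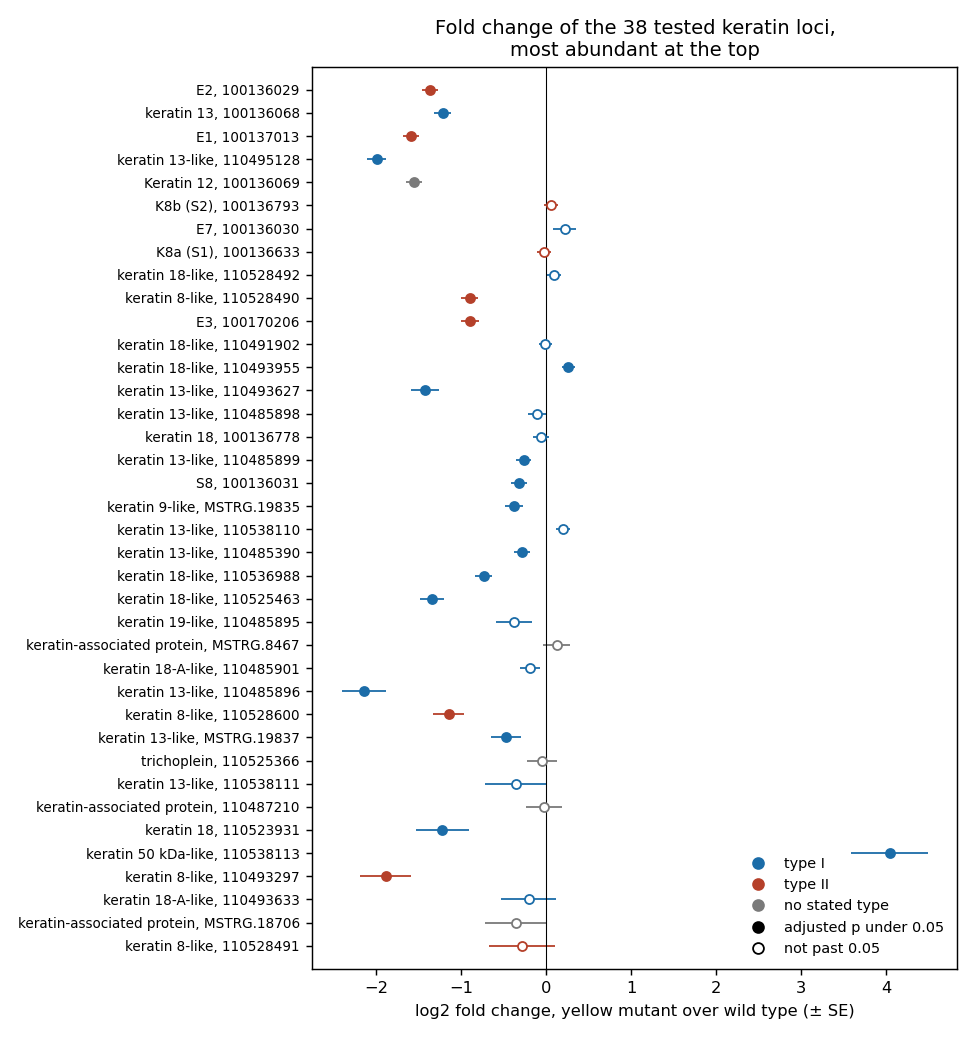
Log2 fold change (yellow mutant over wild type, ± SE) of the 38 tested keratin loci, ordered by mean scaled CPM with the most abundant at the top, coloured by type and filled where the adjusted p is under 0.05. The 5 loci at the top lie between -2.0 and -1.22, and the 3 loci below them lie between -0.03 and 0.22 and did not pass.

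Among type II loci, E2 (ncbi_100136029, listed as krt5 in RefSeq) was the most abundant keratin. It had 11067, 10054 and 10249 CPM in the yellow mutant libraries, against 26661, 26669 and 27507 CPM in the wild-type libraries. The wild-type libraries thus stood well above the yellow mutant ones, with log2 fold change -1.37 (SE 0.0941, adjusted p = 1.64e-07, edgeR), or 2.58-fold lower in the mutant. By FPKM, the deposited level corrected for gene length and depth, E2 ranked 9, 11 and 10 among all loci in the yellow mutant libraries and 1 in each wild-type library. E1 (ncbi_100137013) had 4960, 4630 and 4561 CPM in the yellow mutant, against 13546, 14311 and 14762 CPM in the wild type. It fell 3.01-fold (log2 fold change -1.59, SE 0.0939, adjusted p = 4.44e-08, edgeR), with a wide gap between the phenotypes. E3 (ncbi_100170206), at a far lower level, had 166, 165 and 177 CPM in the yellow mutant, against 256, 350.1 and 339 CPM in the wild type. It fell 1.86-fold (log2 fold change -0.90, SE 0.109, adjusted p = 2.29e-05, edgeR), and wild-type replicate 1 lay nearest to the mutant.

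The loci described as simple type II keratins K8a and K8b did not pass the test. RefSeq lists K8b as krt79, against its description. K8b (S2; ncbi_100136793) had 857, 892 and 938 CPM in the yellow mutant, against 829, 869 and 878 CPM in the wild type, and the phenotypes overlapped. K8a (S1; ncbi_100136633) had 392, 424 and 398 CPM in the yellow mutant, against 399, 426 and 413 CPM in the wild type. The log2 fold changes were 0.06 (SE 0.0832, adjusted p = 0.584, edgeR) for K8b and -0.03 (SE 0.0794, adjusted p = 0.803, edgeR) for K8a. With library totals alone, K8b passed as higher (adjusted p = 0.0148, edgeR), and it also passed in the 3 limma fits on FPKM, while K8a passed in none of these. The E and S letters were set side by side after the values were seen, and type I loci below do not follow them throughout.

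Of 4 loci described as keratin 8-like, 3 (75%) were lower in the yellow mutant, beside 23.1% of all tested loci. The most abundant, ncbi_110528490, had 208, 239.8 and 239 CPM in the yellow mutant, against 368, 445 and 469 CPM in the wild type, with no overlap. It fell 1.87-fold (log2 fold change -0.90, SE 0.102, adjusted p = 1.2e-05, edgeR). The locus ncbi_110528600 had 5.25, 3.37 and 3.53 CPM in the yellow mutant, against 7.68, 10 and 9.13 CPM in wild-type skin (log2 fold change -1.15, SE 0.182, adjusted p = 0.000203, edgeR). Its phenotypes stayed apart at this low level. The rarest of the 3, ncbi_110493297, rested on 39 counts in the yellow mutant and 121 in the wild type, and its log2 fold change was -1.89 (SE 0.299, adjusted p = 0.000206, edgeR). Its counts were 15, 10 and 14 in the yellow mutant libraries and 42, 31 and 48 in the wild-type libraries. It thus passed the filter on low counts through the wild type, and a large change follows in part from the filter. The fourth, ncbi_110528491, had 41 counts in each phenotype and did not pass (adjusted p = 0.585, edgeR).

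Among type I loci, keratin 13 (ncbi_100136068) was the most abundant. Keratin 13 in mammals is a type I keratin of the inner, non-cornified stratified epithelia. It had 8162, 7474 and 7255 CPM in the yellow mutant, against 17131, 17569 and 18613 CPM in the wild type. Every yellow mutant library lay below every wild-type one, and the locus fell 2.33-fold (log2 fold change -1.22, SE 0.0958, adjusted p = 4.71e-07, edgeR). On the FPKM scale it averaged 4081 ± 217 in the yellow mutant and 8277 ± 238 in the wild type. E2 averaged 4087 ± 176 FPKM in the yellow mutant and 9180 ± 113 FPKM in the wild type. In the yellow mutant these 2 levels differed by less than their SD, whereas in the wild type E2 stood above keratin 13. Next in FPKM came E1, with 1805 ± 65.8 in the yellow mutant and 4738 ± 128 in the wild type, and then the keratin 13-like locus ncbi_110495128, with 702 ± 89.4 in the yellow mutant and 2444 ± 65.1 in the wild type.

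The locus ncbi_110495128 showed the second largest decrease of all keratin loci. It had 3233, 2603 and 2545 CPM in the yellow mutant, against 10834, 10969 and 11647 CPM in the wild type. Wild-type libraries agreed closely with each other, and yellow mutant replicate 1 was the highest of its phenotype. The locus fell 3.99-fold (log2 fold change -2.0, SE 0.111, adjusted p = 2.8e-08, edgeR). Its count as a ratio to that of keratin 13 was 0.396, 0.348 and 0.351 in the yellow mutant libraries, against 0.632, 0.624 and 0.626 in the wild-type libraries. This ratio does not depend on scaling between libraries, and it was lower in every yellow mutant library. The pair was chosen after the values were seen. Its lower ratio restates the larger fall of ncbi_110495128 and is no separate support.

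Descriptions name 14 loci as keratin 13 or keratin 13-like. Of the 10 tested, 7 (70%) were lower and 0 were higher, beside 23.1% lower and 21.7% higher over all tested loci. The largest decrease of any keratin locus was at ncbi_110485896, which had 2.60, 2.74 and 2.35 CPM in the yellow mutant, against 8.57, 17.2 and 8.64 CPM in the wild type. It fell 4.43-fold (log2 fold change -2.15, SE 0.26, adjusted p = 2.12e-05, edgeR), with wild-type replicate 2 the highest library, on 147 counts in the yellow mutant and 528 in the wild type. The locus ncbi_110493627 had 59.2, 65.2 and 82.7 CPM in the yellow mutant, against 135, 204 and 219 CPM in the wild type. It fell 2.69-fold (log2 fold change -1.43, SE 0.161, adjusted p = 1.16e-05, edgeR), and the phenotypes did not overlap. The locus ncbi_110485898 had 103, 127 and 132 CPM in the yellow mutant, against 143, 116 and 130.5 CPM in the wild type, and did not pass (log2 fold change -0.11, adjusted p = 0.433, edgeR). Changes at ncbi_110485899 (-0.26), ncbi_110485390 (-0.28) and MSTRG.19837 (-0.48) were small, and of 16 alternative fits only 8, 7 and 5 in that order kept the call. The other 4 of the 7 lower loci kept theirs in all 16. The identifiers with MSTRG name assembled loci that have no NCBI number.

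**Figure D3:**
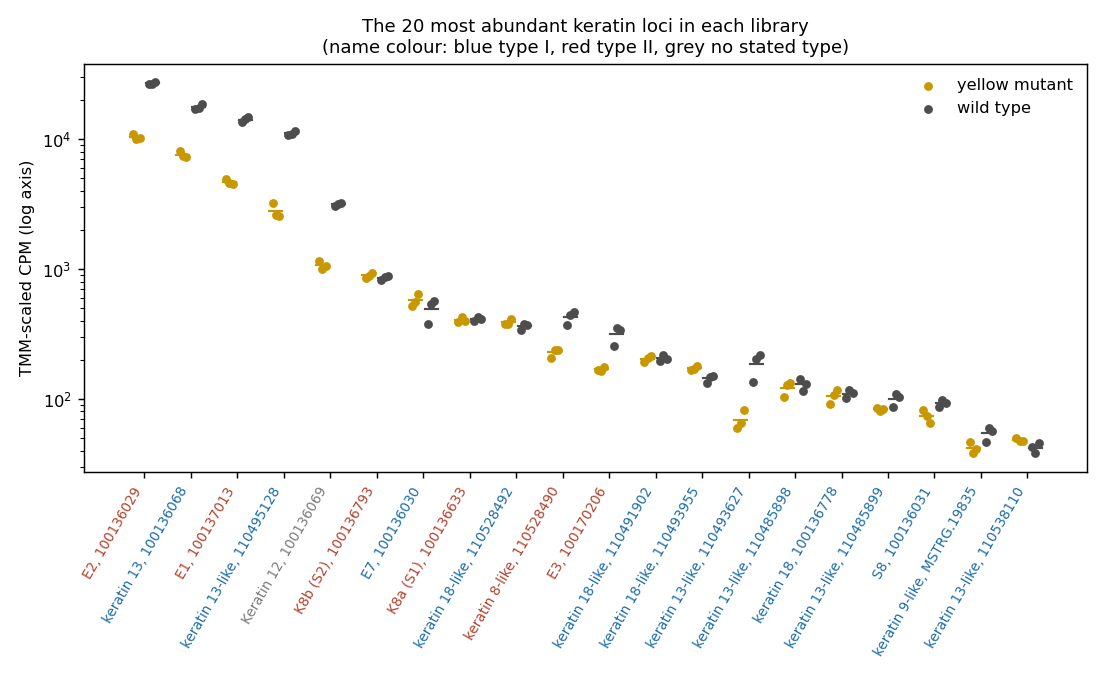
Scaled CPM (log axis) of the 20 most abundant keratin loci in 3 yellow mutant (left of each pair) and 3 wild-type libraries, with points for libraries and lines for means. The 5 loci at the left differ by 2.33 to 3.99-fold with no overlap, while K8b, E7, K8a and keratin 18-like ncbi_110528492 overlap.

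E7 (ncbi_100136030), the type I locus with an E name, had 523, 558 and 643 CPM in the yellow mutant, against 380.4, 538 and 563 CPM in the wild type. The phenotypes overlapped and it did not pass (log2 fold change 0.22, SE 0.132, adjusted p = 0.2, edgeR), though it passed as higher with library totals alone (adjusted p = 0.013, edgeR) and in the 3 limma fits. S8 (ncbi_100136031), the type I locus with an S name, had 82.8, 74.0 and 64.6 CPM in the yellow mutant, against 86.0, 98.0 and 92.95 CPM in the wild type. It fell by 0.32 on the log2 scale (SE 0.0941, adjusted p = 0.0131, edgeR), a call that 10 of 16 alternatives kept. E1, E2 and E3 were thus lower and E7 was not past the threshold, while K8a and K8b were not past it and S8 was lower. The locus MSTRG.19835, keratin 9-like, had a log2 fold change of -0.38 (adjusted p = 0.00848, edgeR), a call that 12 of 16 alternatives kept.

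Keratin 18 and keratin 18-like loci numbered 9. Of the 7 tested, 3 (42.9%) were lower and 1 (14.3%) was higher, beside 23.1% and 21.7% over all tested loci. The other 3 did not pass. The most abundant, ncbi_110528492, had 379, 376 and 409.8 CPM in the yellow mutant, against 342, 380.2 and 369 CPM in wild-type skin (log2 fold change 0.09, SE 0.082, adjusted p = 0.382, edgeR). The locus ncbi_110491902 had 194, 205 and 215 CPM in the yellow mutant, against 196, 217 and 205 CPM in wild-type skin (log2 fold change -0.01, SE 0.0796, adjusted p = 0.934, edgeR). Keratin 18 (ncbi_100136778) had 91.7, 106 and 117 CPM in the yellow mutant, against 102, 116 and 110.4 CPM in wild-type skin (log2 fold change -0.06, adjusted p = 0.641, edgeR). All 3 overlapped between the phenotypes. With library totals alone ncbi_110528492 passed as higher (adjusted p = 0.00728, edgeR), as it did in the 3 limma fits.

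The higher locus of this family was ncbi_110493955, listed as krt18b in RefSeq, with 168, 170.1 and 179 CPM in yellow mutant skin and 133, 147 and 151 CPM in the wild type. Its log2 fold change of 0.26 (SE 0.079, adjusted p = 0.0158, edgeR) was small and became 0.21 with an adjusted p of 0.0701 without wild-type replicate 1. The 3 lower loci were rare. The most abundant of them, ncbi_110536988, had 11.95, 13.2 and 13.3 CPM in yellow mutant skin and 22.6, 18.9 and 22.6 CPM in wild-type skin (log2 fold change -0.74, adjusted p = 5.99e-05, edgeR). The others were ncbi_110525463 at -1.34 and ncbi_110523931 at -1.23.

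The largest increase was at ncbi_110538113, described as a type I keratin 50 kDa-like. It had 3.81, 4.30 and 5.83 CPM in the yellow mutant, against 0.357, 0.5 and 0 CPM in the wild type. Its counts were 66, 88 and 114 in the yellow mutant libraries and 6, 7 and 0 in the wild-type libraries, so it passed the filter through its yellow mutant counts. The log2 fold change was 4.04 (SE 0.452, adjusted p = 1.08e-05, edgeR), and it was 4.64 without wild-type replicate 2 and 3.44 without wild-type replicate 3. At no more than 5.83 CPM in any library this locus adds little to the keratin total. The locus ncbi_110538110, keratin 13-like, lies in the same stretch of the genome and did not pass (log2 fold change 0.20, adjusted p = 0.0619, edgeR), but passed as higher with library totals alone (adjusted p = 0.0011, edgeR), in the 3 limma fits and without wild-type replicate 3.

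Of the loci with no stated type, Keratin 12 (ncbi_100136069) held nearly all counts. Keratin 12 in mammals is a type I keratin of the corneal epithelium. It had 1147, 1002 and 1063 CPM in the yellow mutant, against 3048, 3202 and 3212 CPM in the wild type. The phenotypes were far apart, and the locus fell 2.95-fold (log2 fold change -1.56, SE 0.0915, adjusted p = 4.19e-08, edgeR). The table gives Keratin 12 the same KEGG identifier that 31 of the 35 type I loci carry, while 0 of the 9 type II loci carry one.

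Keratin-associated proteins crosslink keratins in mammalian hair, and the sources used here give them no role in fish skin. Of the 8 loci with such a description, 3 were tested and none passed the edgeR test. They were MSTRG.8467 at a log2 fold change of 0.12 (adjusted p = 0.558, edgeR), ncbi_110487210 at -0.02 (adjusted p = 0.937, edgeR) and MSTRG.18706 at -0.36 (adjusted p = 0.45, edgeR). The trichoplein locus Tchp (ncbi_110525366) did not pass either, at -0.05 (adjusted p = 0.851, edgeR). MSTRG.36075, too rare to be tested, had 12 counts in the yellow mutant (6, 1 and 5 by library) and 0 in the wild type. Scaled for library size, these counts stood 3.30-fold above a floor of 3 counts over the wild-type group. That value leaves the spread of the yellow mutant counts aside, and no difference was tested. The locus ncbi_110539031 had 4 counts in the yellow mutant and 11 in the wild type, and ncbi_110523146 had 2 in the yellow mutant and 0 in the wild type. In all, 16 keratin loci were not tested, none with more than 37 counts over the 6 libraries, and 4 of them had no count.

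The ranks among all loci moved with these levels. By count, E2 ranked 2, 3 and 3 in the yellow mutant libraries and 1 in each wild-type library, and keratin 13 ranked 5, 6 and 7 in the yellow mutant libraries and 2 in each wild-type library. E1 ranked 14 in each yellow mutant library, against 5, 3 and 3 in the wild type, and ncbi_110495128 ranked 23, 29 and 28 in the yellow mutant, against 7, 6 and 6 in the wild type. Keratin 12 ranked 80, 95 and 86 in the yellow mutant, against 30, 31 and 30 in the wild type. Keratins were among the most abundant transcripts in both phenotypes, with 2 among the top 10 by count in each yellow mutant library and 4 in each wild-type library. Among the top 100 by count there were 5 in every library. Per length the numbers were lower in the yellow mutant, with 2, 1 and 1 keratin loci among the top 10 by FPKM in its libraries, against 3 in each wild-type library. Among the top 100 by FPKM there were 3 in each yellow mutant library, against 5 in each wild-type library.

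The balance of type I and type II loci was read from sums over each type. The ratio of type I to type II counts was 0.751, 0.732 and 0.718 in the yellow mutant libraries, against 0.708, 0.712 and 0.731 in the wild-type libraries, and the phenotypes overlapped. Per length the picture differed, since the ratio of FPKM sums was 0.930, 0.924 and 0.910 in the yellow mutant, against 0.799, 0.811 and 0.830 in the wild type, with no overlap. The FPKM ratio averaged 0.921 ± 0.0103 in the yellow mutant and 0.813 ± 0.0156 in the wild type (SD, n = 3 each). No test was made on these sums.

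Position in the genome was read from the gene order of the RefSeq annotation of assembly USDA_OmykA_1.1, which holds 41 of the 54 loci. The build behind the counts was not given in the sources used here, so neighbours are given and coordinates are not. With at most 5 other genes between neighbours, 33 loci formed 7 runs. In 4 of these runs type II loci lay beside keratin 18 or 18-like loci, an arrangement also known in humans, where KRT18 lies beside KRT8. One of these runs held E2, K8a and ncbi_110491902, and another held E1, K8b, keratin 18 and the nearly uncounted ncbi_110532754. A further run held E3 and ncbi_110493955, and another held ncbi_110528490, ncbi_110528491 and ncbi_110528492. Each of the 4 held exactly 1 lower locus, a type II one, next to loci that were higher, did not pass or were not tested.

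**Figure D4:**
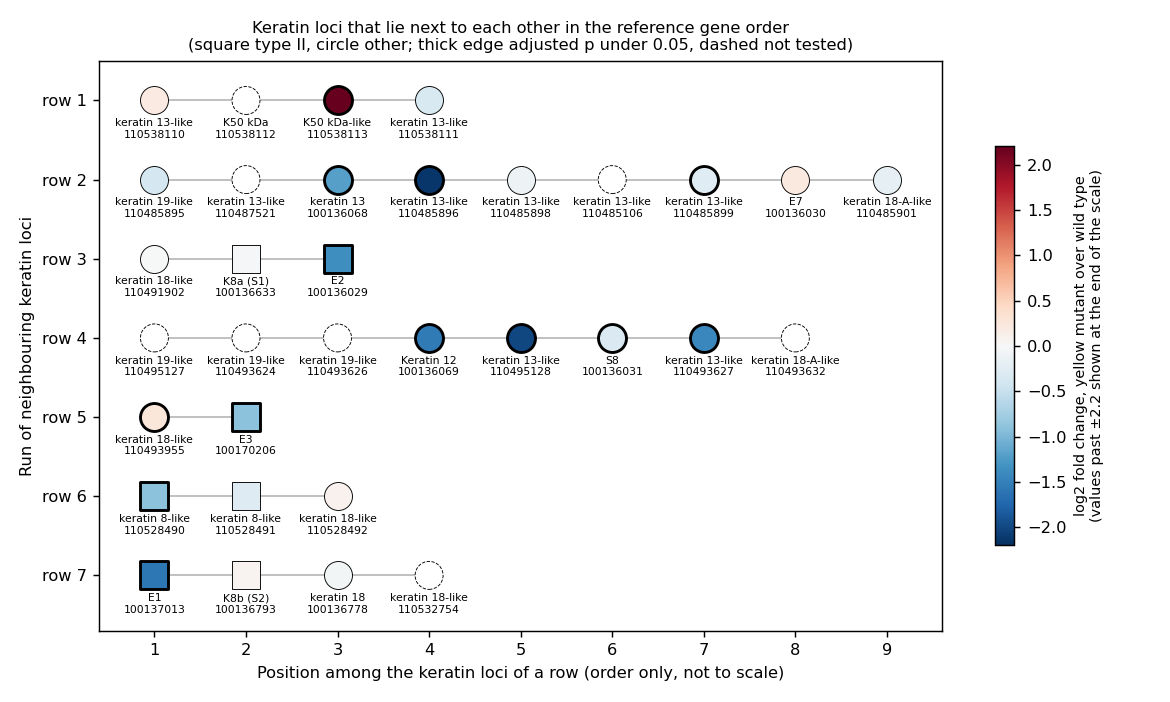
The 7 runs of keratin loci that neighbour each other in the reference gene order, with squares for type II and circles for other loci, coloured by log2 fold change (yellow mutant over wild type). The distances are not to scale, and thick edges mark an adjusted p under 0.05. E2 and E1 are lower beside K8a, K8b and keratin 18 loci near 0, and ncbi_110528490 is lower beside ncbi_110528492 near 0. E3 is lower beside ncbi_110493955, which is higher at 0.26, and ncbi_110538113 is the deep red circle.

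Type I loci formed longer runs. Keratin 13 lay in a run of 9 loci with E7, of which 3 were lower, 4 did not pass and 2 were not tested. Keratin 12, ncbi_110495128, S8 and ncbi_110493627 lay in a run of 8, in which these 4 were lower and the other 4 were not tested. A run of 4 held ncbi_110538113, its untested neighbour ncbi_110538112 and 2 keratin 13-like loci that did not pass. The calls in all runs are to be read against 23.1% lower and 21.7% higher over all tested loci.

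Ratios between neighbours within a library, pairs chosen after the values were seen, restate the same contrast without any scaling between libraries. Lowered loci were set over loci that were not lower, so a lower ratio followed from the choice of pairs and is no separate support. Counts of E2 were 28.2, 23.7 and 25.8 times those of K8a in the yellow mutant libraries, against 66.8, 62.5 and 66.6 times in the wild-type libraries. Counts of E1 were 5.79, 5.19 and 4.86 times those of K8b in the yellow mutant, against 16.3, 16.5 and 16.8 times in the wild type. E3 over ncbi_110493955 was 0.987, 0.970 and 0.992 in the yellow mutant, against 1.92, 2.39 and 2.24 in the wild type. All these ratios were lower in every yellow mutant library. The ratio of ncbi_110491902 over K8a was 0.494, 0.483 and 0.540 in the yellow mutant, against 0.492, 0.509 and 0.496 in the wild type. Neither locus of this pair had passed, so a steady ratio likewise followed from the choice of pair. The keratin 18 loci together, set against K8a and K8b together, gave 0.685 ± 0.0187 in the yellow mutant and 0.679 ± 0.0151 in the wild type, with overlap. Among the lowered loci themselves, E2 over E1 averaged 2.22 ± 0.04 in the yellow mutant and 1.90 ± 0.0605 in the wild type, without overlap and with no test made.

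**Figure D5:**
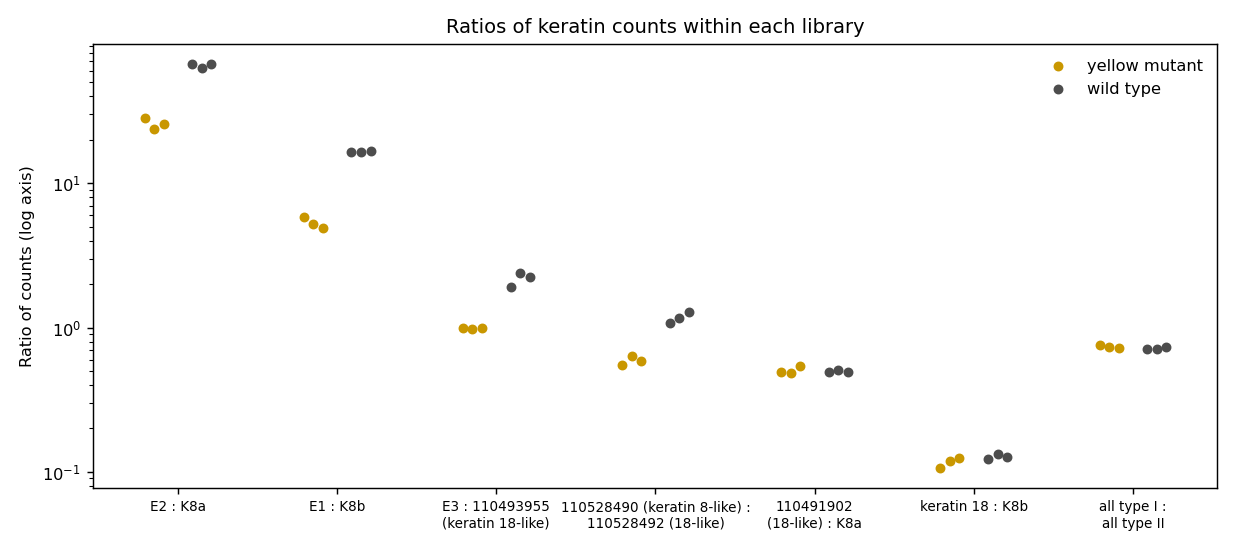
Ratios of keratin counts within each library (log axis), for 3 yellow mutant (left) and 3 wild-type libraries. The 4 ratios of a lowered type II locus to another locus of its run lie lower in the yellow mutant without overlap, and the other 3 ratios overlap. The pairs were chosen after the values were seen.

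Transcripts for the proteins that anchor keratin filaments were read from the same fit. Of the 58 tested loci for linkers, desmosomes and hemidesmosomes, 36 (62.1%) were lower, 2 (3.45%) were higher and 20 did not pass, beside 23.1% lower and 21.7% higher over all tested loci. Their median log2 fold change was -0.54. The 2 higher loci, named after their values were seen, were Pkp3 (ncbi_110526510) at 1.14 and Macf1 (ncbi_110518672) at 0.82. In yellow mutant skin they had only 9.04 ± 1.39 and 5.97 ± 0.146 CPM in that order. More abundant loci with these symbols did not pass. These were Pkp3 (ncbi_110506640) at -0.15 and Macf1 at 0.05 (ncbi_110487604) and 0.08 (ncbi_110496159). DSP (ncbi_110524668), the desmoplakin that joins filaments to desmosomes, had 327 ± 9.47 CPM in yellow mutant skin and 704 ± 19.1 in wild-type skin (log2 fold change -1.11, adjusted p = 2.32e-07, edgeR). Dsg2 (ncbi_110524639), a desmosomal cadherin, had 298 ± 10.7 CPM in yellow mutant skin and 615 ± 51.8 in wild-type skin (log2 fold change -1.05, adjusted p = 8.44e-07, edgeR). Periplakin loci gave the largest changes of the list, PPL (ncbi_110485330) at -3.33 and Ppl (ncbi_110487129) at -2.39, both at low levels. More abundant periplakin loci, named after their values were seen, fell less. PPL (ncbi_110487122) had 176 ± 5.58 CPM in yellow mutant skin and 290 ± 28.1 in wild-type skin (log2 fold change -0.72). Ppl (ncbi_110485331) had 84.1 ± 3.78 CPM in yellow mutant skin and 133 ± 10.1 in wild-type skin (log2 fold change -0.66). COL17A1 (ncbi_110529109), a hemidesmosome collagen of basal cells, had 1059 ± 58.7 CPM in yellow mutant skin and 1242 ± 127 in wild-type skin and did not pass (log2 fold change -0.23, adjusted p = 0.0674, edgeR). Another COL17A1 locus, ncbi_110493532, named after its values were seen, was lower (log2 fold change -0.50, adjusted p = 0.00351, edgeR). That locus had 347 ± 54.4 CPM in yellow mutant skin and 492 ± 61.0 in wild-type skin.

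Of 21 tested loci for regulators of epidermal differentiation, 15 (71.4%) were lower, 1 (4.76%) was higher and 5 did not pass, again beside 23.1% lower and 21.7% higher over all tested loci, and their median log2 fold change was -0.74. The 3 loci named by rule carry the symbol Klf4, a zinc finger factor of the outer layers of mammalian epidermis. KLF4 (ncbi_110501271) had 36.9 ± 10.1 CPM in yellow mutant skin and 295 ± 44.4 in wild-type skin (log2 fold change -3.00, adjusted p = 2.59e-08, edgeR). The others were ncbi_110524203 at -1.86 and ncbi_110536955 at -3.41. The descriptions of ncbi_110501271 and ncbi_110524203 read Krueppel-like factor 2, against their symbol, and that of ncbi_110536955 reads Krueppel-like factor 4. Of 31 tested loci for intermediate filaments other than keratins, 13 (41.9%) were higher, 6 (19.4%) were lower and 12 did not pass, with a median of 0.67. The lower share is near the 23.1% of all tested loci, and the higher share is above their 21.7%. On the scaled CPM the summed level of this list was nevertheless lower in every yellow mutant library. It was 826 to 856 CPM in yellow mutant skin and 883 to 884 CPM in the wild type. The TMM factors, 1.06 to 1.08 in the yellow mutant and 0.920 to 0.951 in the wild type, differ by more than these sums. This order thus rests on the scaling. The abundant lamins, filaments of the nucleus, were near the wild type in LMNA (ncbi_110487461, log2 fold change 0.01, adjusted p = 0.964, edgeR) and LMNB1 (ncbi_110523200, 0.09, adjusted p = 0.351, edgeR), and lmna (ncbi_110514890) fell by 0.39 (adjusted p = 0.0011, edgeR). The largest changes of that list were in rare loci with a desmin symbol, des (ncbi_110527484) at 2.12 and DES (ncbi_110519050), described as glial fibrillary acidic protein-like, at -1.99. The des locus had 0.537 to 0.866 CPM in yellow mutant skin and 0 to 0.363 CPM in wild-type skin. The DES locus had 0 to 0.537 CPM in yellow mutant skin and 0.655 to 1.09 CPM in wild-type skin. Each passed the filter on low counts through the phenotype where it was higher, so a large change follows in part from the filter. Both are counted among the 13 higher and 6 lower loci. NEFL (ncbi_110498314), a higher locus named after its values were seen, also passed the filter through its yellow mutant counts. It had 1.07 to 2.14 CPM in yellow mutant skin and 0.536 to 0.604 CPM in wild-type skin. The share of higher loci in this list thus follows in part from the filter, and other rare loci may have passed likewise.

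Markers of the cell types that the dissected skin could hold are given for comparison, and their part in the keratin result was not tested. Their counts are to be read against 23.1% lower and 21.7% higher over all tested loci. All 13 loci of 4 epithelial marker symbols found were lower, and their summed level was 892 to 929 CPM in yellow mutant skin and 1588 to 1922 CPM in the wild type. Epithelial markers and the linker list share the periplakin and envoplakin loci, which make up most of these 13. The symbol tp63 stands both among the epithelial markers and among the epidermal regulators. Mucous cell markers summed to 1726 to 1960 CPM in yellow mutant skin and 1545 to 1819 CPM in the wild type, with 6 of 24 tested loci higher and 12 lower. Dermal fibroblast markers summed to 49066 to 53091 CPM in yellow mutant skin and 60747 to 69037 CPM in the wild type, with 1 of 18 loci higher and 7 (38.9%) lower. Skeletal muscle markers summed to 14663 to 22096 CPM in yellow mutant skin and 21320 to 24779 CPM in the wild type, with 6 of 30 higher (20%) and 8 lower (26.7%), both shares near those of all tested loci. Erythrocyte markers summed to 700.4 to 929.7 CPM in yellow mutant skin and 689 to 1031 CPM in the wild type, with 0 of 9 higher and 4 lower, and the sums overlapped. Leukocyte markers summed to 787 to 874 CPM in yellow mutant skin and 869.95 to 1011 CPM in the wild type, with 0 of 6 higher and 2 lower. The mucous cell, skeletal muscle and leukocyte sums overlapped between the phenotypes as well. Melanophore markers ran the other way, at 1109 to 1320 CPM in yellow mutant skin and 492 to 582 CPM in the wild type, with 10 of 12 higher and 0 lower. No count was found at 4 mucous cell loci and 1 erythrocyte locus, and every other marker locus of these lists had counts.

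In the authors' deposited table, at a false discovery rate under 0.05, 17 keratin loci were lower and 2 were higher, where 26.5% of all loci passed in either direction. Every one of these 19 loci was called in the same direction by the edgeR test, and 0 were opposite. Both rest on the same libraries, so this is no independent support. The loci ncbi_110485390 and MSTRG.19837, lower in the edgeR test, were not called by the authors, whose false discovery rates were 0.0636 and 0.145 in that order.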

How the data were processed

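Total RNA of dorsal skin was extracted with Trizol and sequenced on Illumina libraries, per the labels' protocols. The deposited table gives counts and FPKM per locus and library, and the authors' own log2 fold changes, p-values and false discovery rates. TopHat2 2.1.1 and Bowtie2 2.2.8 are the tools that the authors name, per the submitters' processing notes. Their roles, the genome build, the counter and its strand setting: not given in the sources used here. FPKM values, deposited by the authors, scale with gene length and library total.

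Members were selected by description, and types by the words type I or type II. Members and gene lists were chosen with earlier results of these data known. Counts were tested in R 4.3.3 with edgeR 4.0.16 (filterByExpr, TMM, glmQLFit, glmQLFTest, Benjamini-Hochberg over 30691 loci, threshold 0.05, 3 libraries a phenotype). DESeq2 1.42.0 and limma 3.58.1 on log2(FPKM + 0.5) were alternatives. Shares, ranks and ratios were not tested. Scaled CPM depends on TMM factors, which were 1.06 to 1.08 in the yellow mutant and 0.920 to 0.951 in the wild type. Named by rule were, for each type and for loci of no stated type, the 8 most abundant, and, among called keratin loci of at least 1 CPM, the 5 largest decreases and increases (2 were found), and of each list the 3 most abundant and 2 most changed. Other keratin loci named were chosen after their values were seen. The fit was tested on simulated data: over 30526 genes, 78.7% of 108 genes changed by log2 1 and 100% of 89 changed by log2 2 were called, with 13 false calls among 187. Only 200 genes were changed there, whereas 44.8% of tested loci passed in the data, so these rates may not carry over.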

Additional observations from a re-analysis of the deposited data

How the results depend on the processing

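Of the 19 lower keratin loci, 14 were called lower in every alternative, and ncbi_110485899, S8, MSTRG.19835, ncbi_110485390 and MSTRG.19837 were each lost in at least 1. Lower loci numbered 16 to 19 and higher loci 1 to 3 when single libraries were left out, and without wild-type replicate 1 the higher count was 1. Higher loci numbered 6 with library totals alone, which added K8b, E7, ncbi_110528492 and ncbi_110538110, and 6 with limma on log2(FPKM + 0.1), log2(FPKM + 0.5) and log2(FPKM + 0.5) at a mean FPKM of at least 1. None of these fits uses TMM factors, so the limma calls are no separate support. Over all tested loci the median log2 fold change was 0.20 with library totals alone and 0.15 to 0.19 with limma. With library totals alone 10 of 58 linker loci and 2 of 21 epidermal regulators were higher, beside 35.2% of all tested loci. The difference in share was -2.41 points of summed FPKM and -1.59 points where the description must begin with keratin, type I or II, which drops E1 and E2 among others. In alternatives chosen after seeing the data it was -3.78 for loci of stated type and reversed to 0.014 without the 5 most abundant loci. The type ratio was 0.921 in the yellow mutant and 0.813 in the wild type by FPKM, while with Keratin 12 as type I it was 0.797 in the yellow mutant and 0.790 in the wild type. The cause of these shifts was not tested.

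Some loci changed sign in an alternative, none of them past the threshold in the reported test. Over the alternatives the log2 fold change ranged from -0.14 to 0.14 for keratin 18 (ncbi_100136778) and -0.51 to 0.12 for ncbi_110528491. It ranged from -0.63 to 0.25 for ncbi_110538111 and -0.23 to 0.013 for ncbi_110485901. With library totals alone the log2 fold change was 0.19 for ncbi_110491902, 0.0914 for ncbi_110485898, 0.17 for K8a, 0.15 for ncbi_110525366 and 0.18 for ncbi_110487210. With limma it was 0.19 for the first and 0.17 for K8a, 0.0894 (pseudocount 0.1) and 0.0889 for ncbi_110485898, 0.14 (0.1) and 0.12 for ncbi_110525366, and 0.17 (0.1) and 0.15 for ncbi_110487210. With 1 library left out, values ranged from -0.045 to 0.035 for ncbi_110491902, -0.18 to 0.0018 for ncbi_110485898, -0.054 to 0.000998 for K8a, -0.0098 to 0.29 for MSTRG.8467, -0.13 to 0.0092 for ncbi_110525366, -0.14 to 0.12 for ncbi_110487210 and -0.54 to 0.028 for MSTRG.18706.

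Same-numbered libraries deviated together only weakly (r = 0.0800, 0.0137 and 0.0557 across genes), so the numbers were not taken as pairs, though each library correlated best with its own number. With the replicate block 19 keratin loci were lower and 2 were higher, but 18 of the 19 were shared: MSTRG.19837 was lost (adjusted p = 0.0516, edgeR) and ncbi_110485895 was gained (0.0213), and 17 other intermediate filaments were higher, beside 13 without the block. The 16 untested loci held too few counts for the filter.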

Other observations

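Outside the rule, loci described as thread biopolymer filament subunits, named after the keratin-like threads of hagfish slime, were among the abundant transcripts of this skin. The gamma-like locus ncbi_110509109 had 2156, 1578 and 1663 CPM in the yellow mutant, against 3282, 2656 and 2908 CPM in wild-type skin (log2 fold change -0.71, SE 0.124, adjusted p = 0.00043, edgeR). The alpha-like locus ncbi_110538894 had 1916, 1426 and 1394 CPM in the yellow mutant, against 2562, 1965 and 2084 CPM in wild-type skin (log2 fold change -0.48, SE 0.134, adjusted p = 0.01, edgeR). On the scaled CPM neither overlapped between the phenotypes. As a share of all counts the alpha-like locus did overlap, with 0.203, 0.153 and 0.150% in the yellow mutant against 0.243, 0.183 and 0.192% in the wild type. With library totals alone its log2 fold change was -0.29 (adjusted p = 0.0816, edgeR), no longer past the threshold, while the gamma-like locus stayed past it at -0.52 (adjusted p = 0.00256, edgeR).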
